A study of Arabidopsis thaliana x Arabidopsis arenosa with 4 samples.

Results

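Siliques of the C24 hybrid and of the Col hybrid were compared in total RNA, gene by gene. Both come from crosses of tetraploid Arabidopsis thaliana with tetraploid Arabidopsis arenosa, and hybrid is used here as the name of the cross. The A. thaliana parent was the ecotype C24 in the C24 hybrid. In the Col hybrid it was Col, which the growth protocol gives as Col-0. The Ler hybrid, of the ecotype Ler and the same A. arenosa parent, is given beside named genes and enters no ratio of C24 over Col. Siliques, the fruits with their developing seeds, were taken 4 days after pollination from flowers emasculated and pollinated by hand. A. arenosa, named last in the sample titles, is taken as the pollen parent; the labels leave the direction of the cross unsaid. Each cross was 1 library of pooled silique tissue, and how many plants it came from is not given in the sources used here.

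Expression was measured by RNA-Seq of poly(A) RNA as RPKM, read numbers divided by transcript length and library size, with both parental alleles added together. A gene was compared where the tables of both hybrids listed the same transcript of it, and 1 transcript per gene was kept, that with the highest mean. This gave 14892 genes of the 16610 listed in any of the 3 hybrids. A further 584 genes were listed in the C24 hybrid and not in the Col hybrid, 718 the other way round, and 3 had no transcript in common. Differences are log2 ratios of C24 over Col with 0.1 RPKM added to each value, centred on the median of all shared genes, so a positive ratio means higher in the C24 hybrid. The uncentred median was -0.12. A difference was counted from 2-fold upward, and with 1 library a side there is no replicate check and no p-value for any gene.

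Most of a silique is seed-parent tissue. If A. arenosa was the pollen parent, the fruit wall is A. thaliana tissue and the F1 hybrid is the seed within it. The fruit wall forms layers with lignified secondary walls, which are built of cellulose, xylan and lignin late in a cell's life, after division and expansion have ended. Young seeds and growing fruit walls divide and make ribosomes. In crosses with A. arenosa, C24 is known as a seed parent that yields more viable seed than Col, and the study's title asks about seed abortion in such hybrids.

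Over all shared genes, 671 were at least 2-fold higher in the C24 hybrid, which is 4.51%, and 395 were at least 2-fold higher in the Col hybrid, which is 2.65%, together 7.16%. By construction 50% of all ratios lie above 0 and 50% below. At 4-fold there were 127 and 37 genes, and at 8-fold 32 and 5. Of all shared genes, 78.4% lay within 1.5-fold, and the ratios had an SD of 0.58. The share of counted genes that were higher in the C24 hybrid was 62.9% with centring and 47.7% without it, when 521 and 572 genes passed 2-fold. Just inside the threshold lay AT3G61210, with 6.22 RPKM in the C24 hybrid and 3.34 in the Col hybrid, and just outside it JAZ1, with 45.0 and 24.5.

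**Figure D1:**
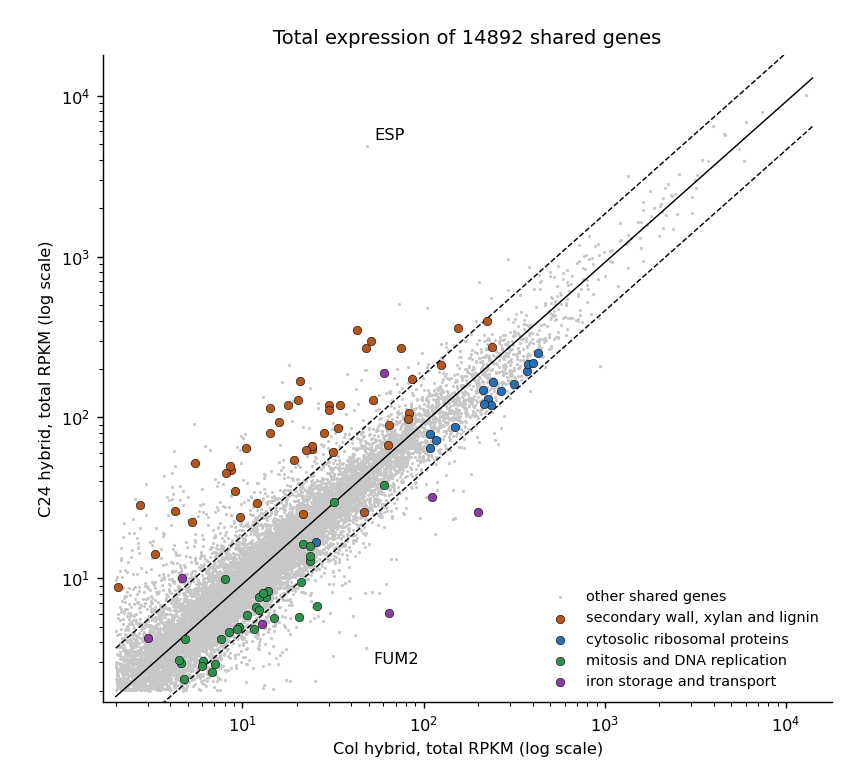
Total RPKM in the Col hybrid (x axis) and in the C24 hybrid (y axis), both on log scales, for the 14892 shared genes, 1 point per gene, with the median ratio as a solid line and 2-fold on either side as dashed lines. Genes of secondary wall, xylan and lignin lie mostly above the upper dashed line, ribosomal protein genes lie in a band below the solid line, and ESP, at 4874 and 48.8 RPKM, stands farthest from it.

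The tissue label was checked against marker genes of the cell types that a silique could hold. Of 5 carpel and ovule markers 4 were listed in both hybrids, with summed RPKM of 124 in the C24 hybrid, 142 in the Ler hybrid and 139 in the Col hybrid; CRC, a carpel gene, was listed in none. Of 4 seed coat markers only TT8 was listed, and none of 4 markers of maturing seed. Green tissue markers summed to 12053, 13150 and 11475 RPKM. Of 11 pollen markers 8 were listed in both hybrids, and their summed RPKM was 43.2 in the C24 hybrid, 62.9 in the Ler hybrid and 70.1 in the Col hybrid. The 5 xylem and fibre markers summed to 532, 125 and 145 RPKM. In the C24 hybrid most of that sum came from CESA4, CESA7 and CESA8, which are also members of the secondary wall list described next. The other markers, XCP1 and XCP2, were within 2-fold between the C24 and Col hybrids, with ratios of 0.34 and 0.60. The sum is therefore no separate measure of the amount of xylem or fibre.

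Genes that build the secondary wall were higher in the C24 hybrid, and their lists had the highest medians of the 36 lists with measured members. The lists were chosen with earlier results of these data known, so this rank is a description and no separate support. Of 18 genes for secondary wall cellulose and its regulators, 13 were measured in both hybrids. Of these 13, 10 were at least 2-fold higher in the C24 hybrid, against 4.51% of all shared genes. None of the 13 was so in the Col hybrid, against 2.65%. Their median ratio was 2.61, a 6.09-fold difference, against 0 over all shared genes. CESA4, CESA7 and CESA8 encode the cellulose synthase subunits of the secondary wall. CESA4 had 168 RPKM in the C24 hybrid, 23.9 in the Ler hybrid and 20.9 in the Col hybrid. CESA7 had 120.0, 17.2 and 17.7 RPKM in the same order, and CESA8 had 128, 17.3 and 20.22. In each the C24 hybrid stood alone and the Ler and Col hybrids lay close together, with ratios of C24 over Col of 3.13, 2.87 and 2.78.

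The measured regulators were also highest in the C24 hybrid. MYB46, a transcription factor that switches on the secondary wall programme, had 28.7, 3.47 and 2.72 RPKM in the hybrids of C24, Ler and Col, a ratio of 3.47. NST1, a NAC factor upstream of it that drives wall thickening in the silique, had 35.1, 12.5 and 9.13 RPKM and a ratio of 2.05. The alleles of NST1 went in opposite directions. In the C24 and Col hybrids the A. thaliana allele had 33.4 and 0.745 RPKM, and the A. arenosa allele 1.66 and 8.38. KNAT7 and SND2, factors of the same network, had ratios of 1.62 and 2.18. MYB103 had 21.1 RPKM in the C24 hybrid and 2.55 in the Ler hybrid, MYB63, a lignin regulator, had 4.50 and 2.63, and VND7, a vessel regulator, had 2.81 in the C24 hybrid alone; none of these 3 was listed in the Col hybrid. MYB83 and NST3 were listed in neither. The other members past 2-fold were COBL4 (3.13), CTL2 (2.61) and FLA11 (2.66). FLA12 (0.94) and the xylem proteases XCP1 (0.34) and XCP2 (0.60) stayed within 2-fold, the last with 90.12, 51.1 and 64.5 RPKM. A larger number of cells with secondary walls and more such RNA per cell cannot be told apart in bulk siliques.

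All 14 xylan genes were at least 2-fold higher in the C24 hybrid, against 4.51% of all shared genes. Their ratios ran from 1.61 in IRX14 to 3.35 in IRX9, with a median of 2.57. IRX9, which acts in extending the xylan backbone, had 51.7, 4.84 and 5.44 RPKM in the hybrids of C24, Ler and Col. ESK1, which acetylates xylan, had 94.2, 11.9 and 15.9 RPKM, and UXS3, which makes the precursor UDP-xylose, had 269, 58.0 and 75.5. The Ler value was the lowest of the 3 in each of these genes. GUX2 was listed in the C24 hybrid at 8.86 RPKM and in the Col hybrid at 2.05, and not in the Ler hybrid. Summed over the 14 genes, the C24 hybrid had 1043 RPKM and the Col hybrid 240.4.

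Of 18 lignin genes, 12 were at least 2-fold higher in the C24 hybrid and none in the Col hybrid. The shares over all shared genes were 4.51% and 2.65%, and the median ratio of the list was 1.37. The laccases, which polymerise lignin in the wall, had the largest ratios: LAC4 had 351, 40.9 and 42.8 RPKM in the hybrids of C24, Ler and Col (3.15), LAC17 had 111, 23.4 and 29.9 (2.01), and LAC11 had 62.5, 17.9 and 22.3 (1.60). LAC2, a laccase outside the list, had 62.1, 6.84 and 4.18 RPKM and one of the largest ratios of all genes, 3.98. Enzymes of the monolignol pathway differed less: 4CL1 had a ratio of 1.52, CYP98A3 1.47, CCoAOMT1 1.34 and HCT 1.12. The entry enzymes, which also feed flavonoids, were within 2-fold, PAL1 at 0.89, PAL2 at 0.48 and C4H at 0.32. FAH1, the hydroxylase on the branch to syringyl lignin, was the one member with a ratio below 0 (-0.73), at 25.9, 27.6 and 47.0 RPKM. Without centring HCT and CAD5 lay just under 2-fold, at 1.00 and 0.93.

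Primary wall genes stayed within 2-fold. None of 12 genes for primary wall cellulose and pectin passed 2-fold, and their median ratio was 0.36. CESA1 had 203, 143 and 226 RPKM in the hybrids of C24, Ler and Col, and CESA3 had 236, 179 and 218. The Ler hybrid was lowest in both genes. Of 11 measured alpha-expansins, proteins that loosen the growing wall, EXPA16 was higher in the C24 hybrid (17.8 against 2.63 RPKM, 2.84) and EXPA3 in the Col hybrid (31.4 against 80.1 RPKM, -1.23).

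The 250 bases before the annotated start of each gene were searched on both strands for elements known from these programmes. The tracheary element, 11 bases long and known from genes of vessel cells, was found in 3 of 13 promoters of the secondary wall list (CESA4, FLA11 and XCP1) and in 0.398% of the promoters of 14810 shared genes. One of the 4 wall elements of 7 bases that MYB46 and related factors bind (ACCAAAC or ACCTAAC or ACCAACC or ACCTACC, none of which contains another) was in 10 of 18 lignin promoters, 4 of 14 xylan promoters and 1 of 13 in the secondary wall list, against 14.3% of all. XCP1 holds the tracheary element and was within 2-fold, and of the 10 secondary wall genes past 2-fold only CESA4 and FLA11 hold any of these elements. The promoter of CESA4, which has the largest ratio of those with the tracheary element, and that of LAC17, which has the largest ratio of the lignin genes with a wall element of 7 bases, are shown, on TAIR10.1, 5′ to 3′ on the gene's strand, with the element in capitals.
CESA4 (chr5:17714140-17714389, plus strand): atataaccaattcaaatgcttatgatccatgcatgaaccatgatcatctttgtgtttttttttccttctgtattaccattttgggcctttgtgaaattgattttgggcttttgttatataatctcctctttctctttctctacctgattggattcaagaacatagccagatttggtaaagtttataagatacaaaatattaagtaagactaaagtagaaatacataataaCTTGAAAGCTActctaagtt
LAC17 (chr5:24167746-24167995, plus strand): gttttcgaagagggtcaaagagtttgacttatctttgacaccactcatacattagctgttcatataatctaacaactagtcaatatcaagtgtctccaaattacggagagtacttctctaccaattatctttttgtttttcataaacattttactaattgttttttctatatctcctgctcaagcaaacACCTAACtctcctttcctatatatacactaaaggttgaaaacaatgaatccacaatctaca

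**Figure D2:**
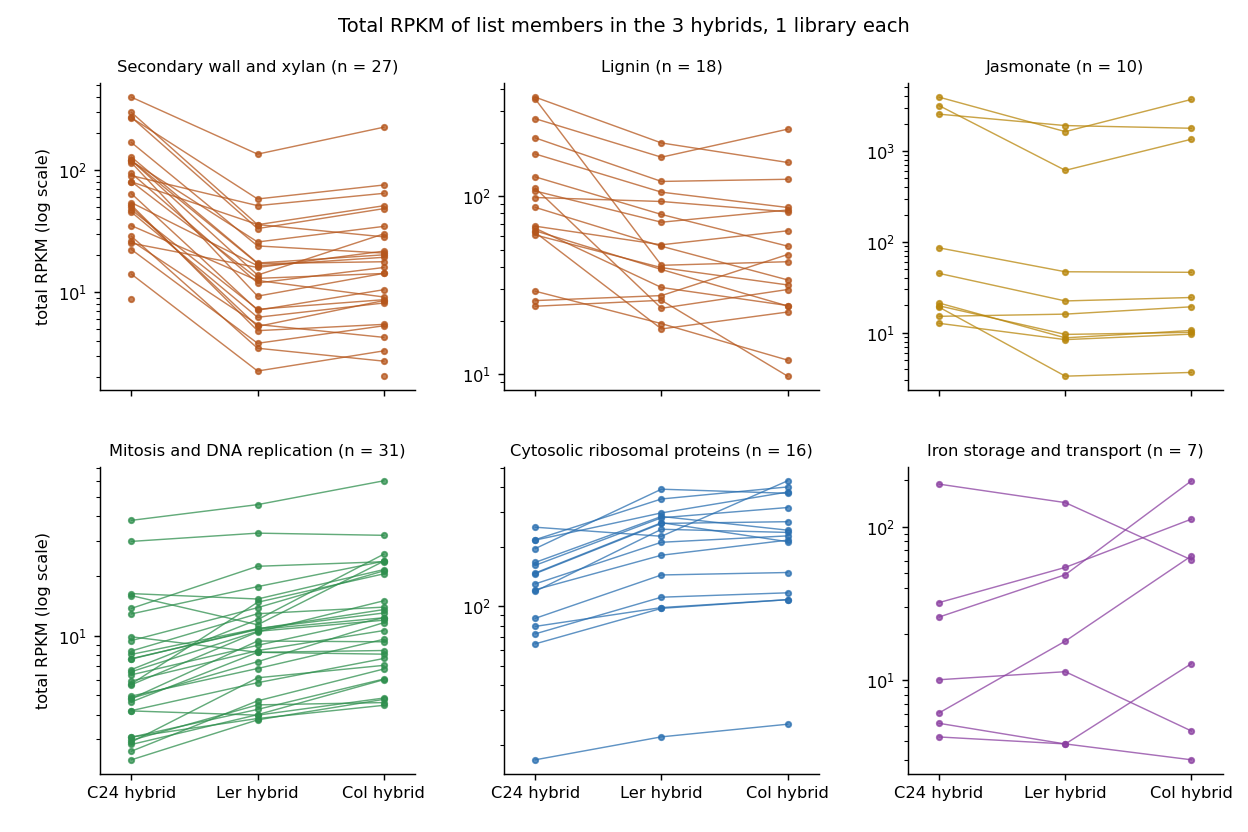
Total RPKM (y axes, log scale) of the shared members of 8 gene lists, 2 of them joined in a panel where the title says so, in the hybrids of C24, Ler and Col, with 1 line per gene and 1 library per cross. Secondary wall and xylan genes with a value in all 3 hybrids are highest in the C24 hybrid, as are 16 of 18 lignin genes. By centred ratio, 11 of 13 secondary wall, 13 xylan and 5 of 18 lignin genes are at least 2-fold higher in C24 than in Ler. Ribosomal protein genes are lowest in the C24 hybrid in 15 of 16 cases, against 7387 of 14680 shared genes that Ler lists. The 3 ferritins are lowest in C24, higher in Ler and highest in Col.

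Genes of cell division were lower in the C24 hybrid. Of 25 genes of mitosis and cytokinesis, 18 were measured in both hybrids. Of these 18, 6 were at least 2-fold higher in the Col hybrid, against 2.65% of all shared genes. None of the 18 was so in the C24 hybrid, against 4.51%. Below 0 were 16 of the 18 ratios, and the median was -0.82, a 1.77-fold difference. CDC20.1, the activator of the anaphase-promoting complex, had 6.74, 12.03 and 25.7 RPKM in the hybrids of C24, Ler and Col (-1.79). SYP111 (KNOLLE), the syntaxin of the cell plate, had 5.71, 14.7 and 20.5 RPKM (-1.70). The mitotic cyclin CYCB1;2 had 5.65, 10.4 and 15.0 RPKM (-1.27). In these 3 genes the Ler value lay between the others. HIK (-1.22), a kinesin of cytokinesis, CYCA1;1 (-1.13) and the Aurora kinase AUR1 (-1.12) were the other members past 2-fold; with a pseudocount of 1 RPKM, HIK lay at -0.996 and CYCA1;1 at -0.94, under the threshold. CYCB1;1, CYCB2;2, AUR2, TPX2 and MYB3R4 were listed in the Col hybrid and not in the C24 hybrid, at 3.13 to 4.18 RPKM. The same held for 718 of the 15613 genes listed in the Col hybrid, and no value below 2 RPKM is listed. MYB3R4 encodes an activator of mitotic genes. CYCB2;1 and CDKB1;2 were listed in neither. CDKA;1, a cyclin-dependent kinase made throughout the cycle, had 29.8, 32.8 and 32.0 RPKM, a ratio of 0.02.

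The core of the mitosis-specific activator element, AACGG, was found in 9 of the 18 mitosis promoters and in 22.1% of the promoters of all shared genes. It was in 1 of 13 replication promoters and 3 of 16 ribosomal protein promoters. SYP111, CYCB1;2, HIK, CYCA1;1 and AUR1, all past 2-fold, hold it. So do PLE (-0.94), CYCB1;3 (-0.83), CDKB2;2 (-0.81) and CYCD3;1 (-0.71), all within 2-fold. CDC20.1, which has the lowest ratio of the mitosis list, does not. Of the members that hold the core, the pair with the lowest ratios is shown, 5′ to 3′, with each core in capitals and, on the opposite strand, as CCGTT.
SYP111 (chr1:2711001-2711250, minus strand): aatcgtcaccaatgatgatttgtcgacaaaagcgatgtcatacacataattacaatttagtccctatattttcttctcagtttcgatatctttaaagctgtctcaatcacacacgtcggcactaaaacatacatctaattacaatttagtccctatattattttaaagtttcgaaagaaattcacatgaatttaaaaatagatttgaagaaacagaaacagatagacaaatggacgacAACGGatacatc
CYCB1;2 (chr5:1861704-1861953, minus strand): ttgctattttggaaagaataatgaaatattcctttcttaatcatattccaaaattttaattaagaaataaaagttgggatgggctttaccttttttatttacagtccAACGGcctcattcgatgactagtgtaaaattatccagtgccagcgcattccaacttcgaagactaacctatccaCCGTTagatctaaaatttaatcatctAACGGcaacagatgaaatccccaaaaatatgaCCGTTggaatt

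Genes of DNA replication lay on the same side. All 13 measured genes had ratios below 0, with a median of -0.65, but only PRL (MCM7) passed 2-fold, at 9.43, 13.8 and 21.2 RPKM in the hybrids of C24, Ler and Col (-1.04); with a pseudocount of 1 RPKM, with the A. thaliana allele alone or centred within its chromosome it lay at -0.98, -0.94 and -0.92. The other MCM helicase genes lay between -0.73 for MCM2 and -0.55 for MCM4. PCNA1, the sliding clamp of the polymerase, had 12.9, 17.6 and 23.7 RPKM. CDC45 was listed in the Col hybrid alone, at 2.45 RPKM. Of 13 histone and chromatin protein genes 12 were below 0 (median -0.48), and HTA11, a variant of H2A, passed 2-fold (-1.04). The centromere histone CENH3 was listed at 2.97 RPKM in the Col hybrid and the stress-linked linker histone HIS1-3 at 5.86 RPKM in the C24 hybrid, each missing from the other.

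Of 13 measured genes of DNA methylation and silencing, 11 were below 0, with a median of -0.51. AGO9, an Argonaute of ovules, had 18.7, 22.9 and 47.2 RPKM in the hybrids of C24, Ler and Col (-1.21), and VIM1, which helps to maintain CG methylation, had 2.87, 3.43 and 6.76 (-1.09; -0.89 with a pseudocount of 1). MET1, the CG methyltransferase, had 6.93, 9.32 and 10.7 RPKM, and CMT3, a non-CG methyltransferase, had 6.32, 9.77 and 11.6. In both the C24 hybrid was lowest, at ratios of -0.50 and -0.74. AGO4 and the demethylase gene ROS1 lay at -0.02 and 0.05. RDR2 was listed in the Col hybrid and not in the C24 hybrid.

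Ribosomal protein genes were lower in the C24 hybrid by a small and even amount. All 16 listed genes of the cytosolic ribosome had ratios below 0, from -0.86 in RPS6A to -0.33 in AT2G19730, with a median of -0.67, a 1.59-fold difference, and none passed 2-fold. RPS6A had 119, 245 and 236 RPKM in the hybrids of C24, Ler and Col, and RPL5B had 196, 389.7 and 371. In 15 of the 16 genes the C24 value was the lowest of the 3. The same held for 7387 of the 14680 shared genes that the Ler hybrid lists. Over all 309 shared genes whose annotation reads "ribosomal protein", chloroplast and mitochondrial ones included, 278 were below 0 and the median was -0.55. Of these, 18 were at least 2-fold higher in the Col hybrid and 2 in the C24 hybrid, against 2.65% and 4.51% of all shared genes. The summed RPKM of the 309 genes was 32164 in the C24 hybrid, 50497 in the Ler hybrid and 51856 in the Col hybrid. By the same kind of word search, 199 transcription factor genes had a median of 0.05 and 90 F-box genes 0.03.

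**Figure D3:**
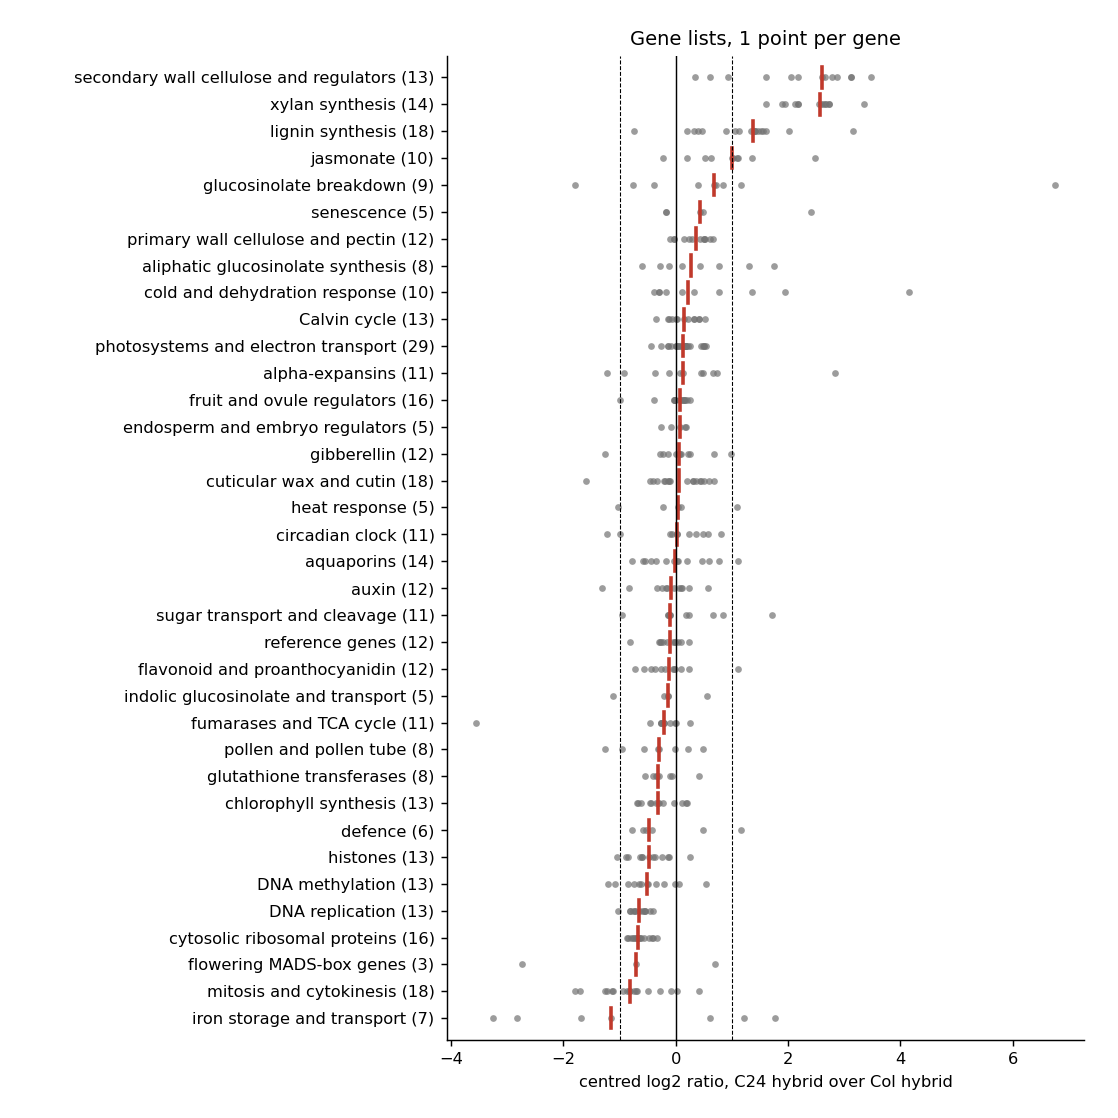
Centred log2 ratios, C24 hybrid over Col hybrid (x axis), of the measured members of 36 gene lists, 1 grey point per gene, with the list's median as a red bar, the number of genes measured in parentheses and 2-fold as dashed lines. Secondary wall, xylan and lignin stand at the top with medians of 2.61, 2.57 and 1.37, and mitosis and iron at the bottom with -0.82 and -1.15.

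Glucosinolates, the defence compounds of Brassicaceae, are hydrolysed by myrosinases, and specifier proteins set the product. ESP, which directs breakdown to nitriles and epithionitriles, had the largest ratio of all shared genes, 6.76, with 4874 RPKM in the C24 hybrid, 4150.1 in the Ler hybrid and 48.8 in the Col hybrid. Col is known as an ecotype with little ESP. That value is for isoform 2; isoform 1, which the table lists separately, had 25.6, 22.4 and 51.8 RPKM and a ratio of -0.89. ESM1, which acts against nitrile formation, was listed in the Col hybrid alone, at 104 RPKM. The myrosinase genes TGG1 (0.72) and TGG2 (0.83) were within 2-fold, whereas NSP1, a nitrile specifier, was higher in the C24 hybrid (11.1 against 5.36 RPKM, 1.16). MBP1, a myrosinase-binding protein gene, was lower in the C24 hybrid, at 68.3, 269 and 258 RPKM (-1.79).

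The chain-elongation and core genes of aliphatic glucosinolates were low in both hybrids and highest in the Ler hybrid. BCAT4, which starts methionine chain elongation, had 7.15, 62.3 and 2.253 RPKM in the hybrids of C24, Ler and Col (1.75), and CYP83A1 had 15.6, 122 and 6.83 (1.30). MAM1, CYP79F1, IPMI2 and IMD1 were listed in the C24 hybrid, at 2.38 to 6.48 RPKM, and not in the Col hybrid; SOT17 was listed in the Col hybrid and not in the C24 hybrid. The other 6 of the 8 measured genes were within 2-fold. Of the indolic branch, CYP83B1 was higher in the Col hybrid, at 6.66, 35.5 and 15.9 RPKM (-1.12).

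Jasmonate, a hormone of wounding and of flower and fruit maturation, is made from linolenic acid by lipoxygenases and the enzymes AOS, AOC and OPR3. Of 10 measured genes 5 were at least 2-fold higher in the C24 hybrid and none in the Col hybrid. The shares over all shared genes were 4.51% and 2.65%, and the median of the list was 1.01. The lipoxygenase gene LOX4 had 19.2, 3.34 and 3.67 RPKM in the hybrids of C24, Ler and Col (2.48). VSP2, a storage protein gene that jasmonate induces, had 3157, 612 and 1347 RPKM (1.35). LOX3 (1.12), OPR3 (1.09) and the transcription factor MYC2 (1.01) lay close to the threshold and without centring at 1.00, 0.96 and 0.89, all under it. AOC1 and JAZ10 were listed in the C24 hybrid alone, at 4.21 and 5.27 RPKM. LOX2 (0.64) and VSP1 (0.21), among the most abundant RNAs at 2542 and 3909.8 RPKM in the C24 hybrid, were within 2-fold, and AOS was at -0.22.

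Iron genes went in both directions. Ferritins, the plastid and mitochondrial proteins that store iron, were lower in the C24 hybrid. FER1 had 25.7 RPKM in the C24 hybrid, 48.5 in the Ler hybrid and 199 in the Col hybrid, FER3 had 32.0, 54.2 and 112, and FER4 had 6.11, 17.9 and 64.4. In all 3 the order from low to high was C24, Ler, Col, with ratios of -2.82, -1.68 and -3.25, and FER2, known from seeds, was listed in the Col hybrid alone at 2.35 RPKM. YSL1, a carrier of iron chelates, was also lower in the C24 hybrid (5.22 against 12.8 RPKM, -1.15). OPT3, which loads iron into phloem, went the other way, at 189, 143 and 60.6 RPKM (1.76), as did PYE, a regulator of the iron deficiency response, at 10.0, 11.3 and 4.65 (1.22). In OPT3 and PYE the Ler value was near that of the C24 hybrid. YSL3 was within 2-fold (0.60), and the other 7 genes of the list, nicotianamine synthases among them, were listed in neither cross.

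Of 10 measured genes of cold and dehydration, KIN1 (4.16), KIN2 (1.36) and the dehydrin RAB18 (1.95) were higher in the C24 hybrid, while COR15B, COR47 and RD29A were within 2-fold with ratios below 0. KIN1 had 90.6, 119 and 5.43 RPKM in the hybrids of C24, Ler and Col and its neighbour KIN2 had 555, 585 and 235. KIN1 and KIN2 are near-identical genes, so reads shared between them make their split uncertain. The Col hybrid stood apart in both, and the C24 and Ler hybrids lay close together. Among 6 defence genes the basic chitinase HCHIB passed 2-fold (1.16), and among 5 senescence genes SAG13 (2.41), at 18.204, 2.40 and 3.64 RPKM. Of heat genes HSP70 was higher in the C24 hybrid (1.09; 0.97 without centring and with a pseudocount of 1) and HSP18.2 in the Col hybrid (-1.04; -0.85 with a pseudocount of 1).

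In several lists of metabolism and flowering a single gene passed 2-fold while most others did not. Over all shared genes 7.16% passed. FUM2, the cytosolic fumarase, had 3.68, 30.0 and 48.2 RPKM in the hybrids of C24, Ler and Col, the lowest ratio of all genes with at least 5 RPKM in either cross (-3.55), while the mitochondrial FUM1 had 37.5, 39.8 and 49.1. The other 10 genes of the citric acid cycle list were within 2-fold. AGL31 (MAF2), a repressor of flowering, had 2.32, 20.8 and 17.38 RPKM (-2.73), and its relative MAF1 was listed at 29.8 RPKM in the Col hybrid, 11.8 in the Ler hybrid and not in the C24 hybrid. FLC, the best known of this family, was listed in neither. SWEET11, a sucrose exporter of phloem, was higher in the C24 hybrid (16.7 against 5.50 RPKM, 1.71). Higher in the Col hybrid were GPAT8, a cutin synthesis gene (-1.59), GH3.3, which conjugates auxin (-1.32), GASA4, a gibberellin-regulated gene (-1.26), and RVE1, a clock-controlled factor (-1.22).

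The 12 highest ratios held 8 genes not yet described. AT1G51402, annotated as an uncharacterized protein, had 212 RPKM in the C24 hybrid and 17.99 in the Col hybrid and was not listed in the Ler hybrid. IQD10, an IQ-domain gene, had 49.6, 5.07 and 4.25 RPKM in the hybrids of C24, Ler and Col, and AT2G28315, a nucleotide sugar transporter gene, had 133, 12.8 and 13.0. PCC1, a pathogen and circadian controlled gene, had 66.1, 7.22 and 6.20. In the last 3 the C24 hybrid stood alone. AT5G17165, by contrast, was high in both the C24 and Ler hybrids, at 38.6 and 26.8 RPKM against 2.93 in the Col hybrid. AT3G51325, AT1G13635 and AT5G28450 had ratios of 3.67, 3.62 and 3.54. AT5G28450, annotated as a chlorophyll A-B binding family protein, had 45.0, 3.96 and 4.11 RPKM in the hybrids of C24, Ler and Col.

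Among the 12 lowest ratios, PAP12, a purple acid phosphatase gene, had 3.304, 35.9 and 31.6 RPKM in the hybrids of C24, Ler and Col (-3.10), and SADHU4-1, a retroposon-derived gene, had 4.66, 38.5 and 34.2 (-2.73). Both were low in the C24 hybrid alone. TLP5, a tubby-like protein gene, was high in the Col hybrid alone, at 8.08, 10.09 and 56.9 RPKM, where 49.3% of its RPKM carried the A. arenosa allele against 16.3% in the C24 hybrid. ATG8B, an autophagy gene, had 2.29, 4.57 and 24.998 RPKM in isoform 1 (-3.27) but 15.6, 19.5 and 6.17 in isoform 2 (1.44), so its direction depends on the isoform. The remaining genes, AT1G13650, AT4G09160, AT5G03390 and AT3G11210, had ratios between -3.07 and -2.66; with the isoform of lowest mean, AT1G13650 lay at -0.58.

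**Figure D4:**
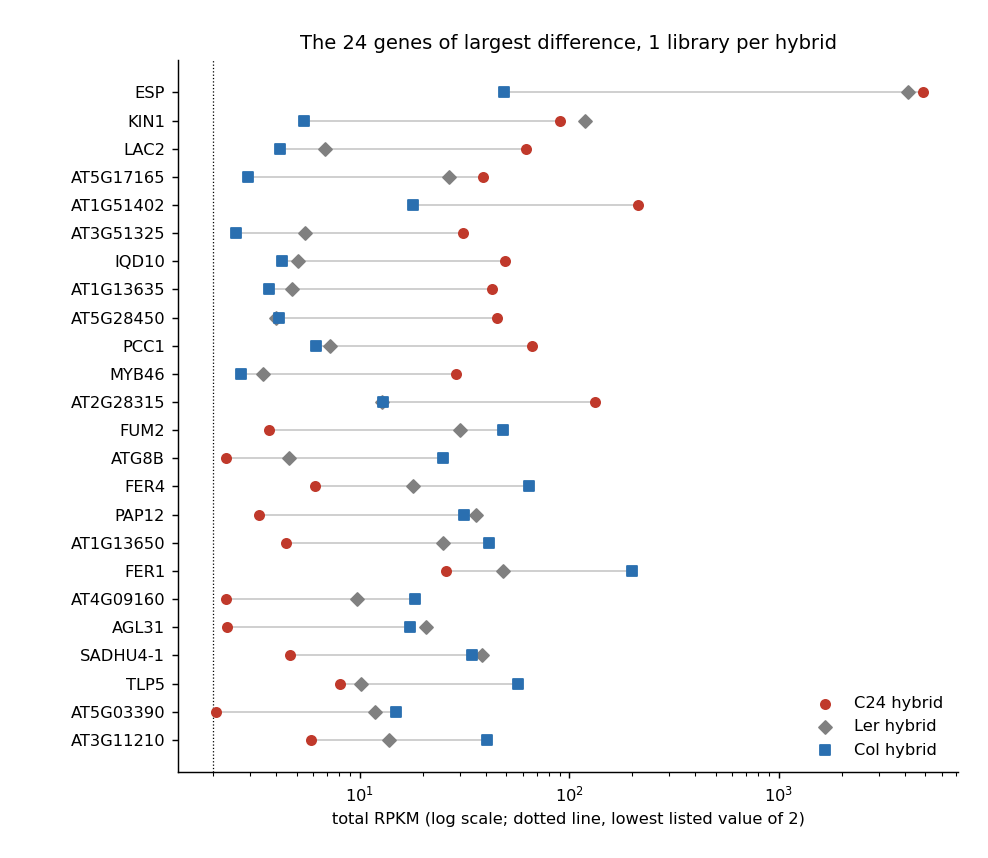
Total RPKM (x axis, log scale) of the 12 highest and the 12 lowest ratios among shared genes with at least 5 RPKM in either cross, with the C24 hybrid as circles, the Ler hybrid as diamonds and the Col hybrid as squares, 1 library each. The Ler diamond lies at the Col square for AT2G28315 and AT5G28450, at the C24 circle for ESP and KIN1, and at the Col end for PAP12, AGL31 and SADHU4-1; AT1G51402 has no diamond, as the Ler hybrid does not list it.

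Isoforms of a gene diverged in some cases. Of 3012 genes with several transcripts listed in both hybrids, 27 had transcripts past 2-fold in opposite directions. PIP1A, an aquaporin gene, had 151 RPKM in the C24 hybrid and 76.1 in the Col hybrid in isoform 1 (1.11) but 45.5 and 102.9 in isoform 2 (-1.05). TTG1, a regulator of seed coat pigment and hairs, had 15.5 and 7.81 RPKM in isoform 1 (1.104) but 3.50 and 7.67 in isoform 3 (-0.99). Without centring isoform 1 of both lay just under 2-fold, at 0.99 for PIP1A and 0.98 for TTG1.

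The photosynthesis genes of the lists, among the most abundant RNAs of the silique, stayed within 2-fold. AT5G28450, given above, is outside these lists. None of 29 genes of the photosystems and electron transport and none of 13 of the Calvin cycle passed 2-fold, with medians of 0.14 and 0.15. RBCS1A, a small subunit of Rubisco, had 7929.9, 8736 and 7377 RPKM in the hybrids of C24, Ler and Col. Chlorophyll synthesis genes had a median of -0.32 over 13 genes, none past 2-fold. None of the 12 reference genes passed either, of which UBQ10, a polyubiquitin gene, lay farthest from 0 at -0.81. No gene of seed storage or oil bodies was listed in either cross, and of the 17 regulators of endosperm and embryo 5 were measured, all within 2-fold, with AGL62, PHE1, FIS2 and MEA listed in neither.

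Regulators of fruit and ovule development had near-equal totals but unequal allele RPKM. None of 16 measured genes passed 2-fold, and the median ratio of totals was 0.07 (-0.05 without centring). The ratio of their A. arenosa RPKM, in contrast, was below 0 in 13 of 16 genes, with a median of -1.98, against 50.1% of genes and a median of 0.00 over all shared genes with allele values. Their summed A. arenosa RPKM was 75.8 in the C24 hybrid and 203 in the Col hybrid. STK, which specifies ovules, had 2.23 RPKM of A. arenosa allele in the C24 hybrid and 16.0 in the Col hybrid, beside 28.6 and 27.96 of A. thaliana allele. SEP2 had 25.04 and 85.4 RPKM of A. arenosa allele, beside 131 and 67.1. STM, the shoot meristem gene, was the most extreme: its A. thaliana allele had 11.2 RPKM in the C24 hybrid and 0.062 in the Col hybrid, and its A. arenosa allele 1.90 and 12.9, with totals of 13.1 and 13.0. The handling of mismatched reads is not stated, and why these allele values differ was not tested.

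Over all shared genes the A. arenosa allele made up 6.24% of summed RPKM in the C24 hybrid and 6.58% in the Col hybrid, so a difference in total rests largely on the A. thaliana allele. Of 669 such genes higher in the C24 hybrid with allele values, 618 were past 2-fold in the same direction in the A. thaliana RPKM alone, and 316 in the A. arenosa RPKM alone. The A. arenosa allele made up 3.88% of their summed change. Of 395 genes higher in the Col hybrid, 341 passed in the A. thaliana RPKM and 180 in the A. arenosa RPKM, and the A. arenosa allele made up 13.8% of the summed change. In the A. arenosa allele 156 of the first and 120 of the second group went against their total, against 6094 of 14862 over all shared genes with allele values. Of those 14862 genes, 1203 were past 2-fold in the direction of their total in the A. thaliana RPKM and 3460 in the A. arenosa RPKM. As the A. thaliana allele makes up most of each summed total, its agreement with the total was largely set by how genes were counted. In the 8 measured pollen markers the A. arenosa ratio was below 0 in every gene, with a median of -0.90, and the total ratio had a median of -0.31; AGP23, an arabinogalactan protein gene of pollen, passed 2-fold (8.20, 17.1 and 21.6 RPKM, -1.26). With the A. thaliana allele alone the direction turned, to a median of 0.47 for the pollen markers and a ratio of 3.11 for AGP23.

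The Ler hybrid lay with either cross, depending on the gene. Of 638 genes higher in the C24 hybrid that the Ler table lists, 298 were within 2-fold of the Col hybrid only, 119 within 2-fold of the C24 hybrid only, 178 of both and 43 of neither. Of 389 genes higher in the Col hybrid, 134 were within 2-fold of the Col hybrid only, 70 of the C24 hybrid only, 167 of both and 18 of neither. Over all 14680 shared genes that the Ler table lists, the numbers in the same order were 887, 484, 12937 and 372. All 13 secondary wall genes had their highest RPKM in the C24 hybrid, as did 3360 of the 14680 shared genes that the Ler table lists. Of the 13, 11 were past 2-fold between the C24 and Ler hybrids and none between the Ler and Col hybrids. Of 10 jasmonate genes 9 were highest in the C24 hybrid. In that list 7 were past 2-fold between the C24 and Ler hybrids and 2 between the Ler and Col hybrids.

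Genes listed in one cross only were mostly low, as no table lists a value under 2 RPKM. Of the 584 genes listed in the C24 hybrid and not in the Col hybrid, 463 were below 5 RPKM, and the median was 3.01; of the 718 listed the other way, 639 were below 5 RPKM, with a median of 2.77. Of these genes the Ler table lists 318 and 514. A gene that a table does not list has no value there, so no ratio is given. The highest in the Col hybrid alone was ARGAH2, an arginase gene, at 563 RPKM, with 344 in the Ler hybrid. SDH3-2, a subunit of succinate dehydrogenase, had 107 RPKM in the Col hybrid and 6.23 in the Ler hybrid, and ECS1 had 80.3 and 3.32. The other top genes of the Col hybrid were ESM1 and MAF1, given above, AT5G24735, AT5G49640 and AT3G18535, at 28.3 to 48.0 RPKM for the last 3.

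The highest genes in the C24 hybrid alone were AT5G05250, at 111 RPKM, with 82.9 in the Ler hybrid, and AT2G30766, at 93.4 with 44.9, both of uncharacterized products. AT5G15360 had 66.2 RPKM in the C24 hybrid and 69.3 in the Ler hybrid, SADHU3-2, like SADHU4-1 a retroposon-derived gene, had 42.2 and 45.5, and AT1G50290 had 37.6 and 90.9. The Ler hybrid listed all 5 of these genes. TPS10, a terpene synthase gene, at 35.9 RPKM, and AT1G61500, an S-locus lectin kinase gene, at 28.5, were listed in the C24 hybrid alone of the 3, and SCPL12 had 26.3 RPKM there and 3.80 in the Ler hybrid.

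Position on the chromosomes showed 1 small, even shift. Genes on chromosome 4 had a median ratio of -0.11, with 62.5% of 2256 genes below 0, whereas the medians of the other chromosomes lay between 0.01 and 0.03. When neighbouring genes were cut into blocks of about 100, all 23 blocks of chromosome 4 had medians below 0, from -0.27 to -0.04, against 11 of 39 blocks on chromosome 1, 5 of 22 on chromosome 2, 13 of 30 on chromosome 3 and 12 of 35 on chromosome 5. The Ler hybrid over the Col hybrid, which shares the Col library, also had all 23 blocks below 0 and a median of -0.13 on chromosome 4. The C24 hybrid over the Ler hybrid had a median of 0.02 there, with 7 of 23 blocks below 0. The A. thaliana allele alone gave -0.12 and the A. arenosa allele -0.05 for C24 over Col. On chromosome 4, 83 genes were at least 2-fold higher in the C24 hybrid (3.68%) and 96 in the Col hybrid (4.26%), against 4.65% and 2.37% on the others. Why chromosome 4 differs was not tested.

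**Figure D5:**
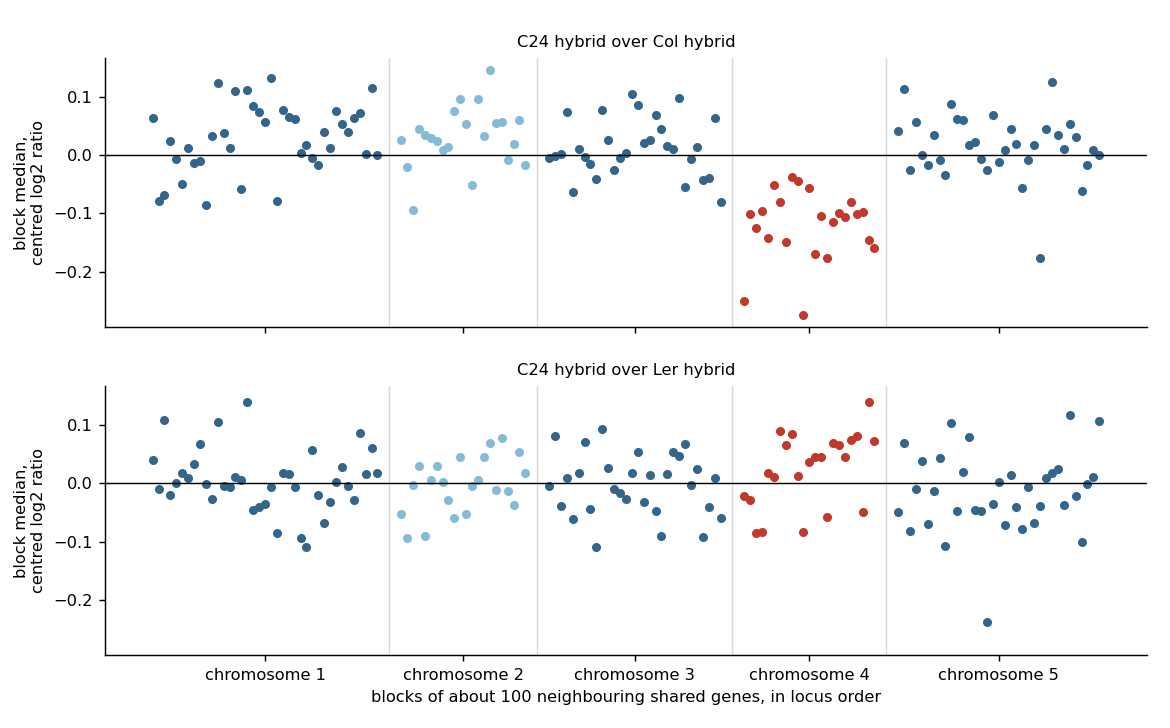
Median centred log2 ratio (y axes) of blocks of about 100 neighbouring shared genes, in locus order along chromosomes 1 to 5 (x axis), for the C24 hybrid over the Col hybrid (upper panel) and over the Ler hybrid (lower panel). In the upper panel all 23 blocks of chromosome 4, in red, lie below 0; in the lower panel 7 of 23 do.

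Neighbouring genes past 2-fold in 1 direction formed 3 runs of at least 3 genes. The longest held 8 genes, from AT1G58602 to AT1G59359 on chromosome 1, all higher in the Col hybrid. They are copies of ribosomal protein S5 genes and of disease resistance genes of the CC-NBS-LRR class. AT1G58684 had 23.2, 38.1 and 145 RPKM in the hybrids of C24, Ler and Col, and AT1G58983 had exactly the same totals, and reads of such near-identical copies cannot be told apart. AT1G59359 had 23.8, 39.0 and 148, and AT1G58602 had 3.85, 28.2 and 12.4. The resistance gene copies AT1G58807, AT1G58848, AT1G59124 and AT1G59218 had ratios from -1.57 to -1.29. The other runs, both on chromosome 5 and higher in the C24 hybrid, were P1R1, AT5G57785 and AT5G57790, with ratios of 1.31, 2.66 and 1.02, and AT5G66330, FOLT1 and RAB18, with 1.07, 1.01 and 1.95.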

How the data were processed

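Poly(A) RNA of siliques was sequenced with an Illumina RNA-Seq kit, per the labels' protocols, 1 library per hybrid. The authors deposited RPKM of each transcript as a total and split into A. thaliana and A. arenosa alleles, per the file headers; no value below 2 RPKM is listed. The submitters' processing notes name the build TAIR 9, which is of the Col ecotype; the aligner and the handling of mismatched C24, Ler or A. arenosa reads are not stated in them or in the labels. The depth is unknown, so no counting interval is given, and RPKM makes each gene depend on the library's total.

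From these values, 1 transcript per gene was kept, 0.1 RPKM was added, and log2 ratios were centred on their median; this understates ratios of low genes. For the Col hybrid, 4 repeated header lines were dropped, and 41 transcripts with both alleles at 0 stayed out of allele comparisons. Summed RPKM was 710281, 762595 and 754526 in the C24, Ler and Col hybrids. Of the shared codes, 14810 were matched to the TAIR10.1 annotation, which gave names, locus order and promoter sequence, by locus code and with no coordinate of the authors' build. No promoter table was at hand, so the 250 bases before each annotated start were cut from the TAIR10.1 genome.

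Named genes were the 12 highest and 12 lowest ratios with at least 5 RPKM in either hybrid, the 8 highest of those listed in 1 hybrid, up to 6 members of a list past 2-fold and 2 more of highest mean, members of runs of at least 4 neighbours, and members needed to account for a list. LAC2 falls under both the highest ratios and the laccases. The genes at the 2-fold threshold, the allele examples, the shorter runs and the isoform examples were chosen after their values were seen. The members and the 38 lists, of 551 genes, were chosen with earlier results of these data known. Alternatives were a pseudocount of 1, no centring, centring on genes of at least 5 RPKM, a filter of 5 RPKM, all transcripts, the transcript of lowest mean, a 4-fold rule and the A. thaliana allele alone; centring per chromosome and leaving out genes of identical totals were added after seeing the data. Python 3.11.15, numpy 2.4.6, pandas 2.3.3 and matplotlib 3.10.9 were used.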

Additional observations from a re-analysis of the deposited data

How the results depend on the processing

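With 1 library a side, no difference between these hybrids has a replicate check, and ecotype, plants, harvest and library cannot be told apart. No paired analysis was possible because each hybrid is a single library with no replicate number to share and no test was made.

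The number of genes higher by at least 2-fold stayed between 521 and 828 for C24 and, for Col, between 291 and 572, over the alternatives that kept the 2-fold rule; at 4-fold it was 127 and 37. Only-listed genes of at least 5 RPKM numbered 121 in the C24 hybrid and 79 in the Col hybrid. The median of the flowering MADS-box genes went to -1.72 with a filter of 5 RPKM, which leaves fewer genes, and that of pollen genes to 0.47 with the A. thaliana allele alone; the cause of the latter was not tested. With the transcript of lowest mean, ESP (-0.89), ATG8B (1.44), TTG1 (-0.99) and PIP1A (-1.06) changed direction, and AGP23 (3.11) did with the A. thaliana allele alone. The medians of the secondary wall, xylan, lignin, mitosis, replication, ribosomal protein, iron and jasmonate lists kept their sign under every alternative. Of the named genes, 8 lost their 2-fold difference without centring and 7 gained one. Medians near 0 changed sign without centring in the fruit, endosperm, clock, heat, cuticle and gibberellin lists. Centring per chromosome gave 653 and 378 genes, and leaving out 76 genes of identical totals 667 and 389.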

Other observations

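Several groups not described so far had few members past 2-fold, as did all shared genes, of which 7.16% passed. Of 18 measured genes of cuticular wax and cutin, which waterproof the fruit surface, 1 passed 2-fold (GPAT8), and the median was 0.05 (-0.07 without centring). CER1, which makes wax alkanes, had 450.2 RPKM in the C24 hybrid, 266 in the Ler hybrid and 346 in the Col hybrid. Of 12 measured flavonoid genes, which colour the seed coat and shield the fruit wall, TTG1 alone passed, and the median was -0.11. Of 8 glutathione transferases, detoxifying enzymes, none passed, 7 lay below 0, and the median was -0.31; GSTU24 was listed in the Col hybrid alone at 3.33 RPKM. Of 14 aquaporins, water channels of the plasma membrane and the vacuole, PIP1A passed, and PIP2A, the most abundant in the C24 hybrid at 872 RPKM, had 555 RPKM in the Col hybrid. Of 12 auxin genes GH3.3 passed, and TAA1, an enzyme of auxin synthesis, was listed at 4.90 RPKM in the Col hybrid and not in the C24 hybrid. Gibberellin genes repeated the allele pattern of the fruit regulators: the median ratio was 0.06 in total (-0.06 without centring) and -1.47 in the A. arenosa RPKM, which was below 0 in 10 of 12 genes.

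By annotation text, 82 cytochrome P450 genes had a median of 0.04, with 10 at least 2-fold higher in the C24 hybrid and 4 in the Col hybrid. The shares over all shared genes were 4.51% and 2.65%. The 42 peroxidases had a median of 0.08, with 7 and 3. The 60 disease resistance genes had a median of 0.17, with 8 and 5, the latter all in the run of neighbouring copies on chromosome 1. Genes named for histones had a median of -0.24 over 85 genes, with 62 below 0. By level, the median ratio was within 0.01 of 0 for genes under 100 RPKM and -0.11 for the 1014 genes at or above it.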
